A study of Homo sapiens with 4 samples.

Results

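The genes described are the JAK kinases JAK1, JAK2, JAK3 and TYK2 and the transcription factors STAT2, STAT3, STAT5A, STAT5B and STAT6. They were chosen by name, and all 9 have a row among the 27356 genes of the deposited tables. The study measured mRNA by sequencing in HaCaT, an immortalised human keratinocyte line. Control cells received phosphate-buffered saline (PBS, 2 libraries). Treated cells received M5 (2 libraries), a mixture of IL-1α, IL-17, IL-22, TNF-α and oncostatin M, each at 10 μg/L, and both groups were harvested after 72 h. Both groups were the same line, grown to a density of 50% before treatment, so no group differs by genotype. The treatment tag of the M5 libraries instead gives 25 μM of an agent abbreviated DAC. Since the titles, protocols and series text all name M5, groups follow the titles. It is not stated in the labels whether the 2 libraries of a group are separate cultures, so every p-value measures only how these libraries scatter, which may be technical variation.

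JAK kinases sit on the inner tails of cytokine receptors and are activated when a ligand brings receptor chains together. They phosphorylate the receptor and then STAT proteins, which pair up, enter the nucleus and switch on genes, among them the SOCS inhibitors that damp the pathway. In keratinocytes the receptors for IL-22 and oncostatin M work through JAK kinases and mainly STAT3, whereas IL-1α, IL-17 and TNF-α use other adaptor proteins.

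Sequencing depth was 15858644 and 16051974 counts for PBS, and 18992988 and 19749612 for M5. The 9 genes took 0.0827% and 0.0811% of all counts in PBS, and a larger 0.128% and 0.125% in M5. All 8 listed keratinocyte markers were tested and present in every library, with a summed level of 3422 to 3467 FPKM in PBS and 3987 to 4370 in M5, and 7 rose while KRT5 fell by 0.96 on the log2 scale. FPKM are fragments scaled to gene length in kilobases and to the library total. Of 6 lymphocyte markers 2 had a row, with at most 2 counts in a library. Of 6 myeloid markers 3 had a row, with a sum of 1.64 to 2.37 FPKM in PBS and 4.71 to 5.21 in M5, led by CD14, which rose by 1.49 on the log2 scale. Fibroblast, endothelial and melanocyte lists summed to at most 0.731 FPKM in any library. The part of such markers in the JAK and STAT values was not tested. In RNA from whole cultures, a change in the number of cells of a type and a change of RNA per cell cannot be told apart.

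STAT3, STAT6, STAT2 and JAK2 had 1.80-fold to 2.06-fold more mRNA in M5, JAK1 and TYK2 rose by less, and STAT5B did not pass the test. Changes are log2 fold changes of M5 over PBS, fitted to the counts with edgeR after TMM scaling, a correction of library totals for genes that take a large share of reads. Genes with a mean of at least 1 FPKM over the 4 libraries were tested, and a gene was called changed at an adjusted p under 0.05. Of the 7 JAK and STAT genes that passed this filter, 6 were higher in M5 and 0 lower. Of all 10809 tested genes 55.9% were called, 28.8% higher and 27.1% lower. JAK2, with a mean of 1.00 FPKM, passed only through the M5 libraries. Without the filter 7 of all 9 were higher and 0 lower, where 22.4% of 27356 genes were called, 12.4% higher and 9.99% lower. Scaled CPM (a gene's count relative to its library's scaled total) of M5 and PBS did not overlap for any of the 7, with 6 higher and STAT5B lower. The same was true of 77.2% of all tested genes, 37.8% higher and 39.4% lower in M5.

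**Figure D1:**
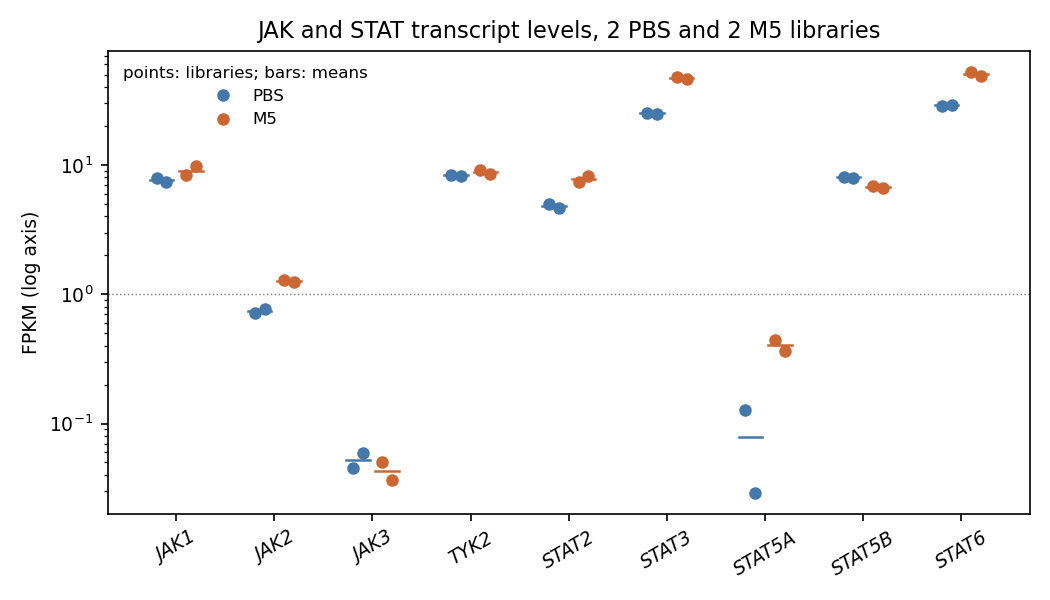
FPKM (log axis) of the 9 JAK and STAT genes in the 2 PBS (blue) and 2 M5 (orange) libraries, with points for libraries, bars for group means and a dotted line at 1 FPKM. STAT3 and STAT6 lie highest, between 24.9 and 52.5 FPKM, while JAK3 and STAT5A do not exceed 0.445 FPKM in any library.

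JAK1, which serves the gp130 cytokines, the interferons and the IL-10 family, is ENSG00000162434 on chromosome 1 (64833229 to 64966504, minus strand, GRCh38, GENCODE 29). Its level was 7.98 and 7.35 FPKM in PBS (7.67 ± 0.446, SD, n = 2) and 8.29 and 9.74 FPKM in M5 (9.01 ± 1.03). Both M5 libraries lie above both PBS libraries, and the M5 libraries differ from each other by more than the nearest PBS and M5 values do. JAK1 rose by 0.38 on the log2 scale (SE 0.07, edgeR adjusted p = 0.000178). The call was lost with limma on log2(FPKM + 1), at 0.21 (limma adjusted p = 0.0927).

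TYK2, the partner of JAK1 at type I interferon and IL-22 receptors, is ENSG00000105397 on chromosome 19 (10350529 to 10380676, minus strand). It stood at 8.43 and 8.23 FPKM in PBS (8.33 ± 0.144) and at 9.21 and 8.47 FPKM in M5 (8.84 ± 0.518). The highest PBS and the lowest M5 library were almost level. With TMM scaling TYK2 rose by 0.24 (SE 0.07, edgeR adjusted p = 0.00535). That call did not hold with library totals in place of TMM (0.09, edgeR adjusted p = 0.273), with TPM scaling (0.06, edgeR adjusted p = 0.486) or without PBS replicate 2 (0.21, edgeR adjusted p = 0.0641).

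JAK2, the kinase of the erythropoietin, growth hormone and IL-3 family receptors and also used by gp130, is ENSG00000096968 on chromosome 9 (4984390 to 5128183, plus strand). JAK2 had 89 and 97 counts in PBS, against 194 in each M5 library. In FPKM these are 0.710 and 0.764 in PBS (0.737 ± 0.0385) and 1.29 and 1.24 in M5 (1.27 ± 0.0350), so the groups lie far apart relative to their spread. JAK2 rose by 0.93 (SE 0.18, edgeR adjusted p = 0.000243), or by 0.96 without the filter (edgeR adjusted p = 0.00158). It fell under the filter when either M5 library was left out.

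JAK3, which pairs with the common gamma chain of lymphocyte cytokine receptors, is ENSG00000105639 on chromosome 19 (17824780 to 17848071, minus strand). PBS gave 6 and 8 counts and M5 gave 8 and 6, or 0.0452, 0.0596, 0.0503 and 0.0363 FPKM. The groups overlap completely. A change was not detectable at this depth: the log2 fold change without the filter was -0.10, with a 95% interval from -1.59 to 1.40 (edgeR adjusted p = 0.948).

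Among the STAT genes, STAT3, the factor downstream of gp130, oncostatin M and IL-22 receptors, had the largest rise of those tested with the filter. It is ENSG00000168610 on chromosome 17 (42313324 to 42388568, minus strand). PBS gave 4505 and 4488 counts and M5 gave 10120 and 10161, at a level of 25.3 and 24.9 FPKM in PBS (25.1 ± 0.282) and 47.4 and 45.8 FPKM in M5 (46.6 ± 1.15). The 2 libraries of each group nearly coincide, and the groups are far apart. STAT3 rose by 1.04 (SE 0.05, edgeR adjusted p = 5.17e-12), a 2.06-fold change, and 93.8% of the tested genes had a lower value.

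STAT6, the factor of IL-4 and IL-13 signalling, is ENSG00000166888 on chromosome 12 (57095408 to 57132139, minus strand). It measured 28.7 and 29.3 FPKM in PBS (28.99 ± 0.399) and 52.5 and 48.8 FPKM in M5 (50.6 ± 2.62). The lowest M5 library was well above the highest PBS library. STAT6 rose by 0.96 (SE 0.06, edgeR adjusted p = 5.23e-11), a 1.94-fold change. Of its exon bases 1.75% also belong to NAB2 and LRP1 on the other strand, and reads were not marked by strand with the kit the protocol names.

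STAT2, which acts with IRF9 in the response to type I and type III interferons, is ENSG00000170581 on chromosome 12 (56341597 to 56360155, minus strand). It had 4.96 and 4.66 FPKM in PBS (4.81 ± 0.217) and 7.41 and 8.22 FPKM in M5 (7.81 ± 0.572). Both M5 values were higher than both PBS values by more than the spread within either group. STAT2 rose by 0.85 (SE 0.07, edgeR adjusted p = 1.44e-08), a 1.80-fold change. STAT2, STAT3 and STAT6 kept their call in all 16 alternative settings run, with log2 fold changes of 0.60 to 0.93 for STAT2, 0.86 to 1.08 for STAT3 and 0.77 to 1.02 for STAT6.

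STAT5B, a factor of growth hormone and IL-2 family signalling, is ENSG00000173757 on chromosome 17 (42199168 to 42276707, minus strand). PBS gave 1562 and 1545 counts, and the deeper M5 libraries 1588 and 1573, at a level of 8.13 and 7.95 FPKM in PBS (8.04 ± 0.131) and 6.90 and 6.58 FPKM in M5 (6.74 ± 0.231). On the FPKM scale both M5 libraries lie below both PBS libraries. With TMM scaling the log2 fold change was -0.10 with a 95% interval from -0.23 to 0.03 (edgeR adjusted p = 0.167), so a small fall cannot be told from no change. The gene was called lower with library totals (-0.25, edgeR adjusted p = 0.00158), with TPM scaling (-0.28, edgeR adjusted p = 0.000949) and with limma on log2(FPKM + 1) (-0.22, limma adjusted p = 0.0218).

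STAT5A, the close relative of STAT5B, is ENSG00000126561 on the same stretch of chromosome 17 (42287547 to 42311943, plus strand). It had only 13 and 3 counts in PBS, against 54 and 46 in M5, or 0.128, 0.0293, 0.445 and 0.365 FPKM, and so failed the filter. The groups do not overlap, but the 2 PBS libraries differ several-fold. Without the filter the log2 fold change was 2.53 (SE 0.49, 95% interval 1.45 to 3.60, edgeR adjusted p = 0.00276). It was 3.91 without PBS replicate 1 and 1.84 without PBS replicate 2, and the call was lost without M5 replicate 1 (2.38, edgeR adjusted p = 0.252) or M5 replicate 2 (2.67, edgeR adjusted p = 0.205) and with limma on log2(FPKM + 1) (0.38, limma adjusted p = 0.053).

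**Figure D2:**
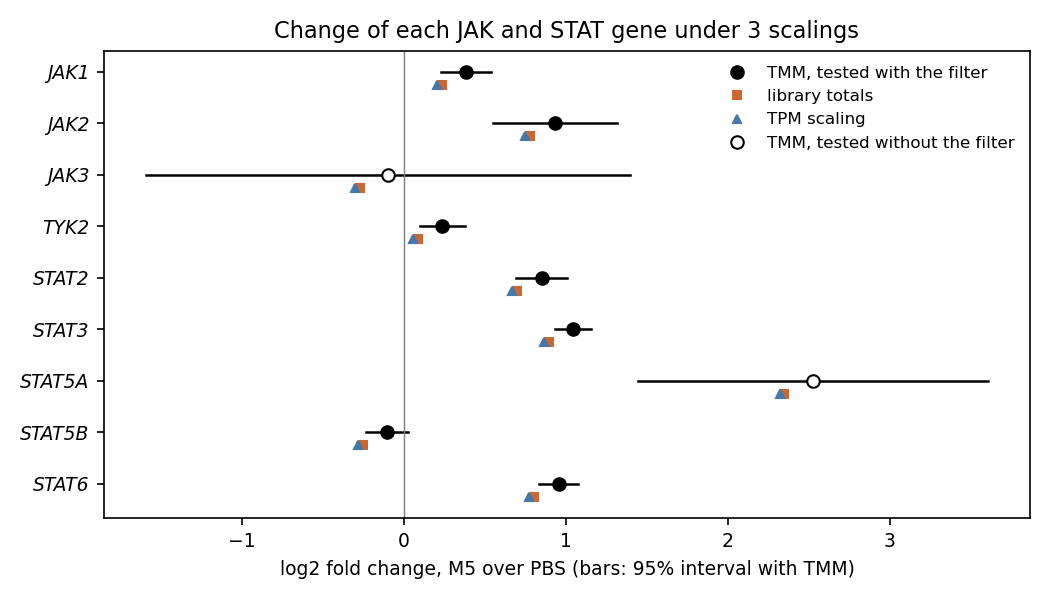
Log2 fold change of M5 over PBS for each JAK and STAT gene with TMM scaling and its 95% interval (circles, open for genes tested only without the filter), with library totals (squares) and with TPM scaling (triangles). The intervals of STAT3, STAT6, STAT2 and JAK2 lie wholly above 0.5, while those of STAT5B (-0.23 to 0.03) and JAK3 (-1.59 to 1.40) include 0.

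The scaling moves all of these values together. Over all tested genes the median log2 fold change was -0.01 with TMM, -0.16 with library totals and -0.20 with TPM scaling. TMM gave 3114 genes higher and 2929 lower, library totals 2201 and 4463, TPM scaling 2027 and 4739, and limma on log2(FPKM + 1) 2010 and 4122. Among the JAK and STAT genes, 5 were higher and 1 lower with totals and with TPM scaling, and 4 were higher and 1 lower with limma. FPKM carry no TMM factor, so a ratio of FPKM is smaller than the fold change fitted to the counts.

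STAT5A and STAT5B lie head to head on chromosome 17 with 10840 bp between them and are alike enough in sequence to bear on how reads are assigned. Of the 50-base windows in the STAT5A coding sequence 21.7% occur unchanged in that of STAT5B, and 12.5% at 150 bases. The longest identical stretch runs over 429 bases, coding bases 564 to 992 of both genes, in exons 7 to 10 of the STAT5A transcript and exons 6 to 9 of the STAT5B transcript (GENCODE 29). Its 2 ends are printed as coding sequence of GRCh38, with capitals for the bases that differ. The first pair covers coding bases 534 to 593 (STAT5A chr17:42295777-42299793, plus strand, STAT5B chr17:42219800-42223398, minus strand, each across an intron):
STAT5A, upstream end: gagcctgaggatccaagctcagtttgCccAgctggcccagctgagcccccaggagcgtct
STAT5B, upstream end: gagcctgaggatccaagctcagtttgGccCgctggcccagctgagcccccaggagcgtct
The second pair covers coding bases 963 to 1022 (STAT5A chr17:42300844-42301307, STAT5B chr17:42218298-42218749):
STAT5A, downstream end: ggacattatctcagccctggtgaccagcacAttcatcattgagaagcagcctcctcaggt
STAT5B, downstream end: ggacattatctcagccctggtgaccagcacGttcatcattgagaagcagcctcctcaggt
A read within these 429 bases fits both genes. How such reads were counted is not given in the sources used here, so the low STAT5A counts are uncertain, and the part of shared sequence in them was not tested. Over whole transcripts rather than coding sequence, STAT5A shared 8.61% and STAT5B 9% of 50-base windows with other genes. On that measure JAK1 and JAK2 shared no 50-base window with another gene's transcripts, and JAK3, TYK2, STAT2, STAT3 and STAT6 shared 0.33% to 1.82%.

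The order of the levels was STAT6, STAT3, TYK2, STAT5B, JAK1, STAT2, JAK2, STAT5A and JAK3 in PBS, by mean FPKM. In M5 it was STAT6, STAT3, JAK1, TYK2, STAT2, STAT5B, JAK2, STAT5A and JAK3. STAT5B and JAK1 overlapped in PBS, as did STAT5A and JAK3, and JAK1 and TYK2 overlapped in M5. The other neighbours did not overlap. This order depends on the gene lengths behind the deposited FPKM, which exceed the merged exons of GENCODE 29: 13174 against 6317 bases for JAK1, 12111 against 6447 for STAT5B and 7465 against 7298 for STAT6. Per kilobase of GENCODE 29 exons, JAK1 (15.99 in PBS, 18.8 in M5) stood above TYK2 (10.5 and 11.1). On the same scale STAT3 (32.0 and 59.4) stood above STAT6 (29.7 and 51.8). In the 2 M5 libraries STAT5B gave 12.97 and 12.35 and STAT2 gave 11.3 and 12.5, which overlapped.

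Within the STAT sum STAT5B had the largest shift in percentage points, while the small STAT5A share went from a mean of 0.117% to 0.360%. The 5 STAT genes summed to 67.2 and 66.8 FPKM in PBS and to 114.7 and 109.7 FPKM in M5, and the 4 JAK genes to 17.2 and 16.4 and to 18.8 and 19.5 FPKM. STAT5B made up 12.1% and 11.9% of the STAT sum in PBS and 6.02% and 5.99% in M5. STAT3 made up 37.6% and 37.3% in PBS and 41.4% and 41.7% in M5. The STAT6 share, at 42.7% to 45.8%, was higher in both M5 libraries, and the STAT2 share, at 6.46% to 7.49%, overlapped between groups. JAK2 went from 4.13% and 4.66% of the JAK sum to 6.86% and 6.37%. Each library held 3.11 and 3.13 times as much STAT3 as STAT5B FPKM in PBS and 6.87 and 6.96 times in M5. These shares and ratios depend on the gene lengths behind the deposited FPKM. With GENCODE 29 lengths STAT5B made up 18.1% and 17.8% of the STAT sum in PBS and 9.34% and 9.25% in M5. On that scale the STAT3 share was above the STAT6 share in every library. An exact permutation test of 2 against 2 libraries cannot give a two-sided p under 0.333, so no test was run on these shares.

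**Figure D3:**
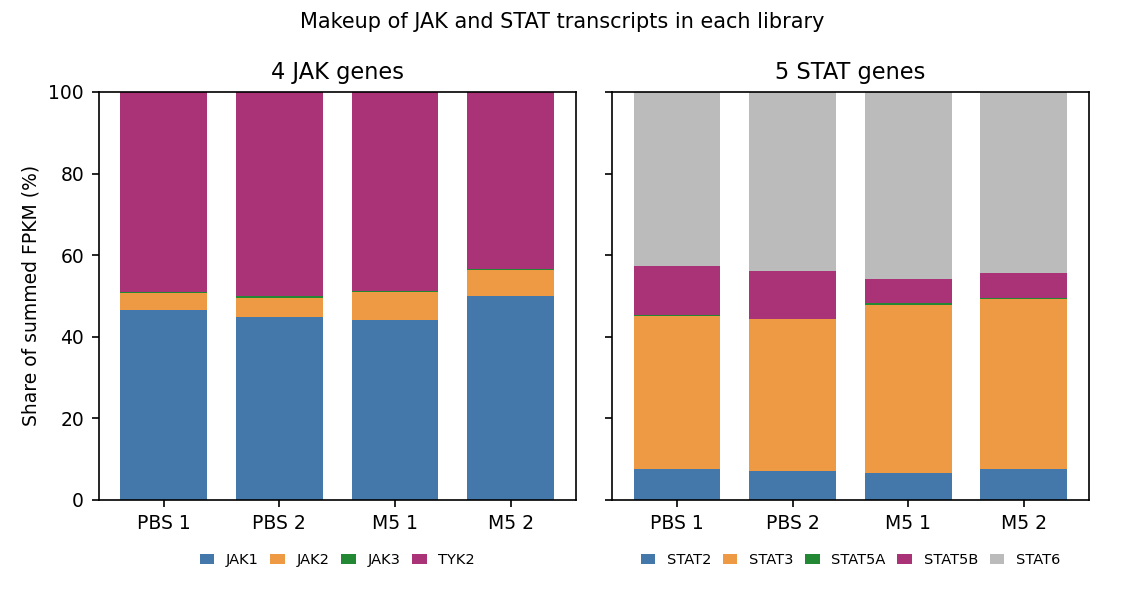
Share (%) of each gene in the summed deposited FPKM of the 4 JAK genes (left) and the 5 STAT genes (right), in each PBS and M5 library. Other gene lengths give other shares. STAT5B narrows from 12.1% and 11.9% of the STAT sum in PBS to 6.02% and 5.99% in M5, and JAK3 and STAT5A are too small to see clearly.

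Promoter stretches were searched because 7 of these genes were higher in M5 and STAT factors bind palindromes with a TTC and a GAA arm. The RefSeq windows of GRCh38.p14, from 250 bases before to 50 after each start, were available for all 9 genes in 16 windows. TTCNNNGAA, the classical spacing, occurred on either strand in 0 of 9 genes, against 9.38% of 27305 genes. TTCNNNNGAA, the spacing that STAT6 prefers, occurred in STAT5A only, against 7.8% of all genes. TTCNNGAA occurred in JAK1, JAK3 and STAT3, against 9.46%, and GAAANNGAAA, an interferon response core, in 0 of 9, against 4.38%. Some genes have several windows. Counted by window, TTCNNGAA occurred in 3 of 16 against 7.74% of 35116, and TTCNNNNGAA in 1 of 16 against 6.44%. TTCNNNGAA and GAAANNGAAA occurred in 0 of 16, against 7.66% and 3.57%. No match overlapped another. A match describes the letters only. The 4 matches are shown with their flanks, 5′ to 3′ on the gene's strand, with the motif in capitals:
JAK1 (chr1:64966751-64966790, minus strand, motif at -225 to -218 from the start): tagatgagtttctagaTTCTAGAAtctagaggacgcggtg
JAK3 (chr19:17848109-17848148, minus strand, -150 to -143): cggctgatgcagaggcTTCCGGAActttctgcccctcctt
STAT3 (chr17:42388550-42388589, minus strand, -131 to -124): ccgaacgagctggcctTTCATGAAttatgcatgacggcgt
STAT5A (chr17:42287194-42287235, plus strand, -229 to -220): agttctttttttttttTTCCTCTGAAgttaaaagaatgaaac
STAT3, with the largest rise among the genes that passed the filter, and JAK3, with no detectable change, both hold the TTCNNGAA letters.

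Genes next to the JAK and STAT genes moved in several ways. IL23A, a subunit of the cytokine IL-23, lies 1187 bp from STAT2 and went from 1.02 and 0.952 FPKM to 7.55 and 7.91 (log2 fold change 3.12, edgeR adjusted p = 3.01e-09). CDC37, a kinase co-chaperone 10458 bp from TYK2, rose by 0.67 (edgeR adjusted p = 6.14e-09), and CACHD1, 140171 bp from JAK1, by 0.85 (edgeR adjusted p = 5.16e-05). CAVIN1 beside STAT3 (-0.11) and NEMP1 beside STAT6 (-0.13) did not pass the test. Other nearest genes with a row were APOF, LINC01359, HNRNPA1P41, INSL4, INSL3, GHDC, LRP1-AS and an unnamed antisense gene by TYK2, all under the filter. STAT3 and STAT5A face each other tail to tail across 1381 bp, and part of reads beyond the end of STAT3 in the STAT5A counts was not tested.

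The tested genes most like STAT3 over the 4 libraries were MSN, which encodes moesin, TSPYL2 and QSOX1, at distances of 0.0173, 0.0192 and 0.0318 in centred log2 CPM among 10249 genes. Their log2 fold changes were 1.04, 1.06 and 1.05. Those most like TYK2 were CSNK2A2 (0.0105), GAS6 (0.0184) and FBXL12 (0.0191), with log2 fold changes of 0.23, 0.24 and 0.24, of which that of FBXL12 was not called. Fold changes near those of STAT3 and TYK2 follow from this choice, as the distance uses the same 4 libraries.

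The genes that feed, restrain or follow the JAK and STAT proteins were taken from 8 lists of textbook members. Lists share genes: SOCS3, SOCS1, SOCS2, OSMR, IL13RA2, BCL2L1 and PIM1, for example, each count in a target list and in another. Over all tested genes the median was -0.01, with 28.8% higher and 27.1% lower. Of 34 ligands of JAK-coupled receptors 22 had a row and 9 were tested, of which 8 rose and 0 fell, with a median log2 fold change of 3.12. Of the 9, 6 had a PBS mean under 1 FPKM and passed the filter only through M5, so these values are a description. Without the filter 11 of the 22 rose and 0 fell, with a median of 1.96. CSF3, the granulocyte growth factor, had 3 and 2 counts in PBS, against 3874 and 4273 in M5 (10.47, edgeR adjusted p = 2.13e-20), and its ratio has an exact 95% interval of 638 to 4590. IL24, an IL-20 family cytokine, had 2 and 0 counts in PBS, against 486 and 529 in M5, a 464-fold ratio with an interval of 128 to 3840. These exact intervals cover counting error only. CSF2, the macrophage and granulocyte growth factor, had 1 and 3 against 50 and 56 counts (4.52, edgeR adjusted p = 6.86e-07), with a ratio interval of 9.19 to 90.6, and IL6 had 19 and 7 against 278 and 319 (4.38, edgeR adjusted p = 1.13e-10). Mean levels of these 4 genes in M5 ran from 3.47 FPKM for CSF2 to 94.7 FPKM for CSF3, against at most 0.189 FPKM in PBS (IL6). IFNE, an epithelial interferon, gave 0.02 and was not called.

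Of 42 receptor chains 33 had a row and 14 were tested, of which 11 rose and 2 fell, with a median of 0.67. With library totals or TPM scaling 9 rose and 2 fell. Without the filter 10 of 33 rose and 3 fell, with a median of 0.52, or 0.40 with genes at 0 in a group set at a floor of 3 counts and genes at or under it in both groups left out. IL13RA2, the decoy receptor of IL-13, went from 5 and 9 counts to 466 and 511 (5.97, SE 0.23, edgeR adjusted p = 7.19e-14), and passed the filter only through M5. IL7R, the IL-7 receptor chain, rose by 2.72, OSMR, the oncostatin M receptor, by 1.97 and IFNGR1, a chain of the interferon gamma receptor, by 1.88. IFNGR2, its partner chain, gave 0.36 and was not called. The 2 that fell are the IL-20 receptor chains, which were named after their values were seen: IL20RA fell by 1.43 on the log2 scale, from 203 and 201 counts to 88 and 75, and IL20RB by 0.23. IL20RA passed the filter only through PBS. The other that fell without the filter was IL22RA1, a chain of the IL-22 receptor, also named after its values were seen. It had 43 and 41 counts in PBS, against 24 and 22 in M5 (-0.97, edgeR adjusted p = 0.0419).

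Of 21 inhibitors and phosphatases 20 had a row and 16 were tested: 8 rose and 2 fell, with a median of 0.22. The split was 7 and 3 with library totals and 6 and 4 with TPM scaling, with medians of 0.06 and 0.03. Without the filter 7 of 20 rose and 2 fell, with a median of 0.08. SOCS3, an inhibitor that binds gp130 and JAK kinases, went from 2.19 and 1.48 FPKM to 38.3 and 37.9 (4.53, SE 0.11, edgeR adjusted p = 7.17e-17). SOCS1, which blocks the kinase domain, rose by 3.80, SOCS2, a brake on growth hormone signalling, by 2.10 and USP18, an inhibitor at the type I interferon receptor, by 1.09. Of these, SOCS1 passed the filter only through M5. SOCS5 and SOCS6, named after their values were seen, fell by 0.46 and 0.39. PIAS4 (0.14) and SOCS4 (-0.11) were not called.

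Of 14 partners and coactivators, all with a row, 11 were tested, 4 rose and 1 fell. The median was 0.03 with TMM but -0.12 with library totals and -0.15 with TPM scaling, where 1 rose and 2 or 3 fell, and without PBS replicate 1 the counts were 1 and 1. Without the filter 3 rose and 1 fell, with a median of 0.09. The adaptor SH2B1, which binds JAK2, fell by 0.47, while STAM rose by 0.43, STAP2, an adaptor of STAT3, by 0.26 and ROCK1 by 0.22. The coactivators CREBBP (0.00) and EP300 (-0.03) were not called. IRF9, the partner of STAT2, had 1 and 0 counts in PBS and 1 in each M5 library. Of its GENCODE 29 exon bases 48.4% are also exons of the same-strand gene AL136295.5, which had 1 count in all 4 libraries together. IFNAR2 (83.2%), IL10RB (38.1%) and NDUFA13 (21%) share exons with other genes too and failed the filter. These overlaps were examined after the low counts were seen, and their part in those counts was not tested.

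Of 18 STAT3 targets, all tested, 16 rose and 1 fell, with a median of 1.18. With library totals or TPM scaling 15 rose and 1 fell. Of the 18, 2 passed the filter only through M5, LRG1 among them. Without the filter 16 rose and 1 fell, with a median of 1.21. Besides SOCS3 and OSMR, the secreted glycoprotein LRG1 rose by 3.30 and BCL3, an NF-κB cofactor, by 2.03. CCND1, which encodes cyclin D1 and was named after its values were seen, fell by 0.37, and MYC gave 0.07 and was not called.

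Of 26 targets of STAT2 with IRF9, all with a row, 19 were tested, 18 rose and 1 fell, with a median of 1.51, and the same counts were found with library totals and TPM scaling. Of the 19, 5 passed the filter only through M5, with IFI6, RSAD2, CMPK2 and OAS2 among them. Without the filter 23 rose and 0 fell, with a median of 1.62. IFI6, a mitochondrial interferon-induced protein, went from 0.741 and 0.799 FPKM to 22.3 and 22.7. RSAD2, the antiviral enzyme viperin, rose by 3.87, CMPK2, a nucleotide kinase beside it in the genome, by 2.97 and OAS2, a sensor of double-stranded RNA, by 2.63. EPSTI1, named after its values were seen, fell by 0.41 (edgeR adjusted p = 0.0362), a call absent without the filter.

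Of 8 STAT5 targets 5 were tested and all 5 rose, with a median of 0.63: SOCS2 by 2.10, CCND2, a cyclin, by 0.79, BCL2L1, an anti-apoptotic protein, by 0.63, PIM1, a kinase, by 0.49, and BCL6, named after its values were seen, by 0.48. With library totals or TPM scaling 4 rose and 0 fell. Without the filter 5 of the 7 with a row rose and 0 fell, with a median of 0.52. CISH, which failed the filter, gave -0.01 there and was not called. Of 11 STAT6 targets 4 were tested. IL13RA2, SOCS1 and TGM2, a transglutaminase (2.12), rose, and CA2, a carbonic anhydrase, fell by 0.37. The 3 that rose passed the filter only through M5. Without the filter 3 of 9 rose and 1 fell, and the median of 2.96 became 0.76, or 1.09 with the same floor. The target lists do not record whether a STAT factor raises or lowers a gene, so a rise is not a reading of its activity. Most of these targets respond to other factors as well, and the lists were not compared with the JAK and STAT values by any test.

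**Figure D4:**
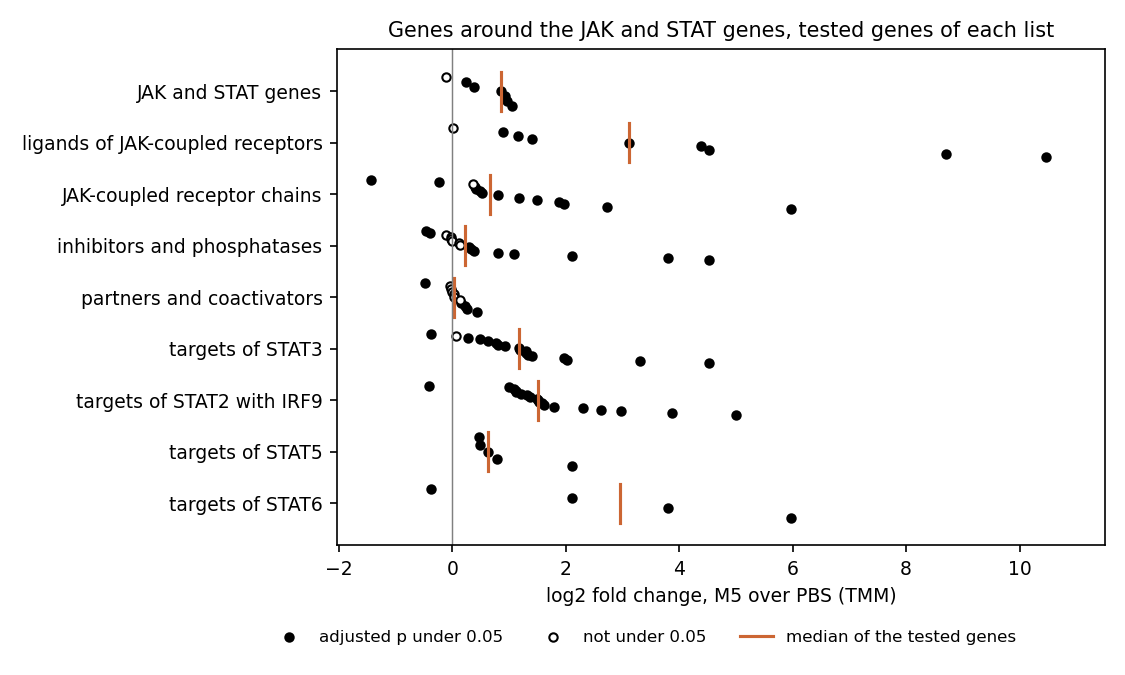
Log2 fold change (M5 over PBS, TMM) of the tested JAK and STAT genes and of the tested genes of 8 lists, with filled points for an adjusted p under 0.05, open points for the rest and orange lines for medians. Medians run from 0.03 for partners and coactivators to 3.12 for ligands, where 6 of 9 genes passed the filter only through M5 and the median without the filter is 1.96.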

How the data were processed

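The deposited tables held a read count and an FPKM value per gene, per the file headers. HISAT2, HTSeq 0.13.5 and GRCh38 are named in the submitters' processing notes. Which annotation release, HISAT2 version and strand setting were used, and how multi-mapping reads were handled, is not given in the sources used here. Count divided by FPKM gave the gene length behind the deposited FPKM. Counts were tested two-sided with edgeR 4.0.16 in R 4.3.3 (glmQLFit and glmQLFTest, TMM), on genes whose mean FPKM reached 1, with Benjamini-Hochberg adjustment over all of them, and the step was tested on simulated data. Alternatives included limma 3.58.1 on log2(FPKM + 1) of the deposited values, DESeq2 1.42.0, other scalings and filters, and each library left out. Levels per GENCODE 29 length and list medians with a floor were added after seeing the data. The genes and lists were chosen with earlier results of these data known.

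Genes were named by a rule. It took all 9 JAK and STAT genes. From each list it took up to 4 called genes with the largest absolute change and up to 2 uncalled genes of highest mean FPKM. It also took the 3 genes nearest to the called gene with the largest and smallest change (log2 CPM, prior count 2), and overlapping and neighbouring genes. Not every gene that this rule selects is reported here.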

Additional observations from a re-analysis of the deposited data

How the results depend on the processing

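The number of changed genes in either direction, 6043 with the settings used, and the 6 changed JAK and STAT genes stayed within 1.5 times under every alternative run. The split by direction did not: 3114 higher and 2929 lower became 2027 and 4739 with TPM scaling. With library totals and TPM scaling the 6 JAK and STAT genes were also not the same, as TYK2 was lost and STAT5B was called lower. The range was 4986 to 6021 genes, and 5 to 6 JAK and STAT genes, when each library was left out in turn. With the replicate number of the titles as a replicate block 6091 genes were called, and 6 JAK and STAT genes. The numbers did not pair the libraries (correlation of replicate differences -0.0207 over 10809 genes, 2 pairs). DESeq2 called 5150 genes, an adjusted p of 0.01 left 4853, and a mean FPKM of at least 5 left 4204 of 6552 tested. JAK2 was not tested under that filter. With it the counts of changed genes were 3 ligands, 6 inhibitors, 12 targets of STAT2 with IRF9 and 2 targets of STAT6. Depth limits JAK3 and STAT5A, with at most 8 and 54 counts in a library.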

Other observations

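Some genes around the JAK and STAT genes failed the filter but were higher in M5 without it, unlike IL22RA1, which was lower. They were chosen after their values were seen, and their changes come from the edgeR test without the filter. IL19 and IL20, cytokines that act through the IL-20 receptor chains, had 0 counts in both PBS libraries, and 168 and 217 (IL19, edgeR adjusted p = 4.55e-07) and 15 and 33 (IL20, edgeR adjusted p = 0.000871) in M5. IFNK, the keratinocyte interferon, had 0 and 5 counts in PBS and 24 and 42 in M5 (log2 fold change 3.55, edgeR adjusted p = 0.00416). Among the interferon-induced antiviral genes, MX1 had 30 and 16 counts in PBS and 438 and 506 in M5 (4.25, edgeR adjusted p = 1.06e-07), and SAMD9L had 47 and 44 against 212 and 271 (2.30, edgeR adjusted p = 6.57e-06). Unlike these, CISH, a STAT5 target and inhibitor, had 63, 42, 55 and 57 counts, with overlapping groups (-0.01, edgeR adjusted p = 0.982).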
